A study of Mus musculus with 9 samples.

Results

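The 9 genes described here encode complement proteins and complement receptors of macrophages, and they were taken by symbol from a table of 26157 genes measured in J774A.1 cells, a mouse macrophage line. They are C1qa, C1qb and C1qc (the chains of C1q), C3, Cfp (properdin), C3ar1 and C5ar1 (receptors of the peptides C3a and C5a), and Itgam and Itgb2 (the chains of complement receptor 3). All 9 were among the 14207 genes tested, which had at least 1 TPM (a transcript level scaled for gene length and library size) in at least 3 of the 9 libraries. Transcripts were sequenced from 3 libraries in each of 3 groups, all of the 1 cell line. Control cells were cultured normally, M2 cells were given IL-4 and IL-13 at 10 ng/mL, and Q11 cells were given Q11 at the same time as these cytokines. By the series title Q11 inhibits CYP2E1, a cytochrome P450 enzyme. Its dose, the cytokine dose of the Q11 cells and the length of treatment are not stated in the sources used here. As the Q11 cells also received the cytokines, Q11 against M2 compares cells with and without Q11, and Q11 against control compares cells that differ in both.

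Complement is a set of blood and tissue proteins that mark particles for uptake, attract phagocytes and open membranes. C1q binds antibody complexes and dying cells and starts the classical pathway, while properdin holds together the enzyme of the alternative pathway that cleaves C3. Fragments of C3 stay on the particle and are read by complement receptor 3, and the small fragments C3a and C5a signal through their own receptors. Most complement proteins of plasma are made in the liver, but C1q and properdin are known products of myeloid cells.

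Recovered reads numbered 15815847 to 17095787 in 8 libraries and 32193521 in Q11 replicate 2. In 11 of the 19252 genes read in Q11 replicate 3, Q11 replicate 2 held fewer reads than that library, against 1929 to 2413 genes for the other 7 libraries. Q11 replicates 2 and 3 are therefore not independent, but all p-values from the table as deposited treat them as if they were. For part of the results, values with the reads of replicate 3 taken out of replicate 2 ("shared reads separated", 15336274 reads left) are given beside those of the table as deposited. On the first principal component (18.4% of the variance) control libraries lay at -23.1 to -19.3 and M2 libraries at 3.55 to 9.35. Q11 replicates 1, 2 and 3 lay at 3.95, 17.0 and 22.3. On the second principal component (17.0% of the variance) M2 replicate 3 lay furthest out, at -29.9, and Q11 replicates 2 and 3 lay at the other end, at 16.4 and 20.6. Q11 replicate 1, at -8.97, lay within the range of the M2 libraries on both components, apart from the Q11 pair that shares reads. All 8 macrophage markers were read, and their summed level was 12346 to 12787 TPM in control, 8069 to 8705 TPM in M2 and 8407 to 8490 TPM in Q11 libraries. The lower sum came from Lyz2 (6698 to 7140 TPM in control, 3343 to 3766 in M2), Cd14 (1497 to 1545 and 918 to 988) and Mpeg1 (773 to 806 and 498 to 512). Cd68 (2525 to 2591 and 2552 to 2653 TPM), Spi1, Fcgr1, Adgre1 and Csf1r overlapped between control and M2. The part of that change in the results below was not tested. Of the hepatocyte markers, Ttr and Fgb together stayed at or under 0.209 TPM, and Alb, Apoa1 and Serpina1a were not analysed here. Fibroblast (2 of 4 used), T cell (2 of 4) and B cell (3 of 3) markers summed to at most 1.41, 0.888 and 1.52 TPM. Endothelial markers (3 of 3) summed to 1.79 to 2.92 TPM, and epithelial markers were not analysed here. Of the neutrophil markers, 2 of 4 were used, and S100a8 was at 29.2 to 38.0 TPM in control, 17.2 to 29.2 TPM in M2 and 16.1 to 19.0 TPM in Q11 libraries.

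In control cells, Cfp was the most abundant of the 9 transcripts and C3 the least. Mean levels per length were 894 TPM for Cfp, 604 for C5ar1, 588 for C3ar1, 549 for C1qb, 497 for Itgb2, 257 for C1qc, 173 for C1qa, 122 for Itgam and 97.3 TPM for C3. C5ar1 and C3ar1 overlapped between libraries, and every other pair of neighbours in this order was separate. Among all genes tested, Cfp ranked 139 in control and C3 ranked 1932. In M2 libraries C3ar1 lay above C5ar1, and C3 (130.7 to 144.6 TPM) lay above Itgam (79.3 to 101.04 TPM) and overlapped with C1qa (133.6 to 146.4 TPM). Behind each value stood 638 or more reads, from C1qa in the separated Q11 replicate 2, up to 27051 for C3ar1 in Q11 replicate 2 as deposited. GENCODE places no gene on the opposite strand of any of the 9. Gm49368, on the same strand as Itgam over most of its length, was at most at 0.472 TPM. Mir6978 overlaps C3 on the same strand by 57 bases, and no level was available for it.

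**Figure D1:**
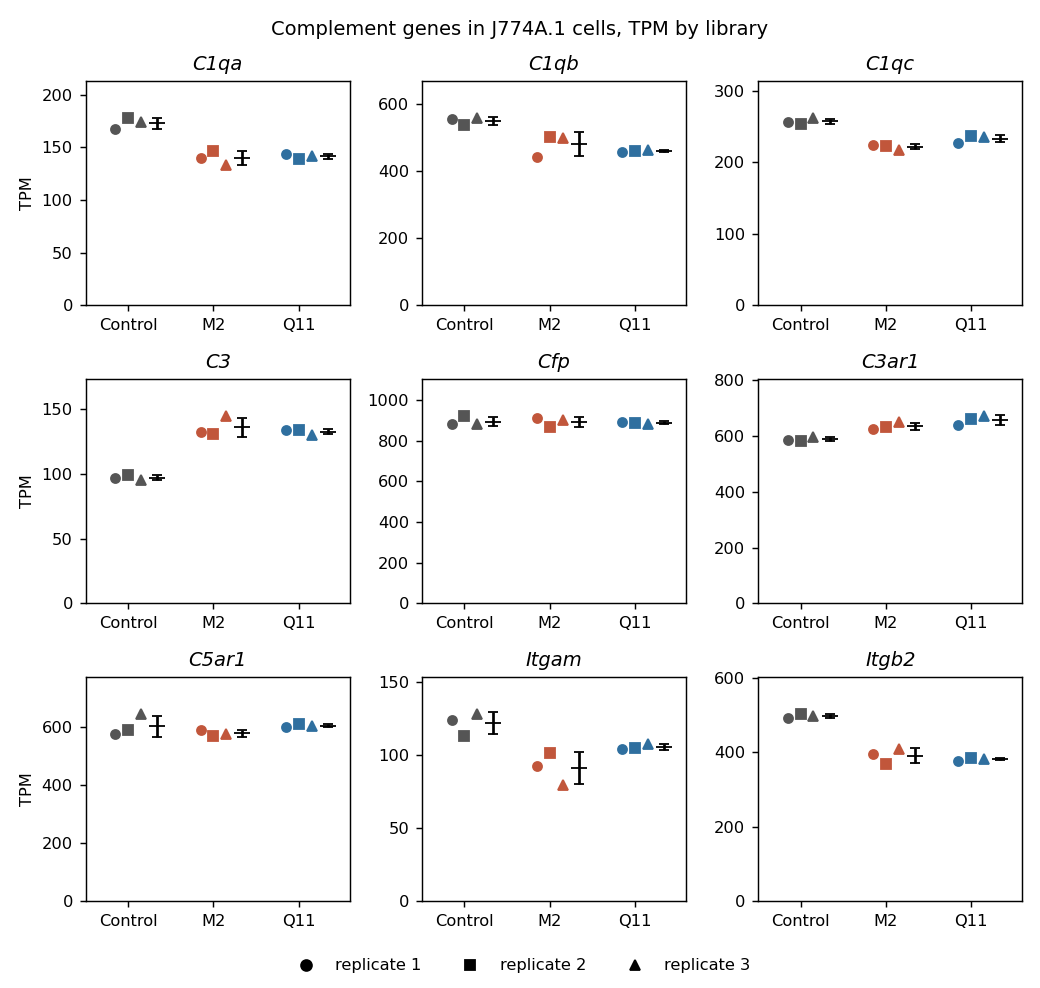
Level in TPM (y axis, from 0) of the 9 complement genes in the 3 control, 3 M2 and 3 Q11 libraries, with symbols for replicates and a bar for the mean and SD. C3 lay higher in all cytokine-treated libraries than in control (130.3 to 144.6 against 95.8 to 99.3 TPM), the C1q chains, Itgam and Itgb2 lay lower, and Cfp overlapped between groups.

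The first comparison, M2 against control, concerns the effect of both cytokines. C3 and C3ar1 rose, and all 3 C1q chains and both chains of complement receptor 3 fell. Cfp and C5ar1 did not pass. That is 2 of 9 genes higher, where 6.88% of all genes tested were called higher, and 5 of 9 lower, where 5.75% of all genes were (limma, Benjamini-Hochberg adjusted p under 0.05). The 3 libraries of M2 did not overlap with those of control in 7 of the 9 genes, against 28.4% of all genes. All 9 lay at 79.3 TPM or more in every library, while a gene tested needed only 1 TPM in 3 libraries. The shares here and below are thus not of genes at like level, and the 9 were chosen with earlier results of these data known. The median difference of the 9 genes was -0.19 on the log2(TPM + 1) scale, beside -0.0026 over all genes. With the shared reads separated the same 7 genes passed, 2 higher and 5 lower, where 5% and 4.35% of all genes were called. In bulk RNA a change in the share of cells that make a transcript and a change in the amount per cell cannot be told apart.

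C1q is built from equal numbers of A, B and C chains, whose genes lie side by side on the minus strand of chromosome 4 (GRCm38) within 18675 bases. C1qb spans 136880129 to 136886187, C1qc 136889804 to 136893065 and C1qa 136895917 to 136898803. C1qa (ENSMUSG00000036887) was at 167, 177 and 174 TPM in control replicates 1, 2 and 3 and at 140.2, 146 and 134 TPM in M2. All M2 libraries lay below all control libraries. It fell by 18.9%, from 173 ± 5.31 to 140.1 ± 6.43 TPM (SD, n = 3 in each group here and below), which is a log2 difference of -0.30 (SE 0.038, 95% interval -0.39 to -0.22, limma adjusted p = 0.00127). C1qc (ENSMUSG00000036896) was at 257, 253 and 261 TPM in control and at 225, 222 and 218 TPM in M2. Its groups were the tightest of the 3 chains, with an SD of 4.13 and 3.45 TPM, and it fell by 13.8% (log2 difference -0.21, interval -0.27 to -0.16, adjusted p = 9.70e-04). C1qb (ENSMUSG00000036905) was at 555, 536 and 557 TPM in control and at 441, 503 and 499 TPM in M2. Its groups did not overlap, but M2 replicate 1 lay well under the other M2 libraries. C1qb fell by 12.5% (log2 difference -0.19, interval -0.30 to -0.09, adjusted p = 0.0276). The C1qb call did not hold when control replicate 1 (adjusted p = 0.0847) or control replicate 3 (0.0856) was left out, nor with no filter (0.0645), no trend (0.0728) or only the groups compared (0.0830), and it passed under 15 of 20 alternatives. Without M2 replicate 1 the difference was -0.13 (adjusted p = 0.0196). The calls of C1qa and C1qc were kept under all 20 alternatives run.

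Together the 3 chains summed to 979 ± 12.8 TPM in control and 842 ± 33.4 TPM in M2. C1qa made up 17.6 ± 0.654% of the C1q transcripts in control and 16.6 ± 0.856% in M2, C1qb 56.1 ± 0.623% and 57.01 ± 2.05%, and C1qc 26.3 ± 0.0801% and 26.3 ± 1.33%. None of these shares separated M2 from control (exact permutation tests, two-sided p = 0.2, 0.5 and 1). With 3 libraries against 3 the smallest p is 0.1, so the design could not pass 0.05, and adjusted over the 12 ratios tested these values were 0.343, 0.667 and 1. C1qb was the most abundant chain and C1qa the least in every library.

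For C1qb, C1qc, Itgam and C3, the letters that precede the gene are shown as a reference. RefSeq promoter windows (GRCm38.p6, 250 bases before to 50 after the start site) were held for 7 of the 9 genes, and C1qa and Itgb2 had no entry. The capitals mark GAGGAA on either strand (TTCCTC on the other), a longer form of the site of ETS factors such as PU.1, the master regulator of macrophages. The shorter ETS core GGAA was not searched, and it also occurs unmarked in the stretches shown, that of C3 included. GAGGAA was found in 4 of the 7 windows (C1qb, C1qc, Cfp and Itgam) and in 28.3% of all 32851 windows. The sequences are 5′ to 3′ on the gene's strand and stop before the annotated transcript, at chr4:136886201-136886450 (minus) for C1qb, chr4:136893066-136893164 (minus) for C1qc, chr7:128062390-128062639 (plus) for Itgam and chr17:57228137-57228386 (minus) for C3.
C1qb: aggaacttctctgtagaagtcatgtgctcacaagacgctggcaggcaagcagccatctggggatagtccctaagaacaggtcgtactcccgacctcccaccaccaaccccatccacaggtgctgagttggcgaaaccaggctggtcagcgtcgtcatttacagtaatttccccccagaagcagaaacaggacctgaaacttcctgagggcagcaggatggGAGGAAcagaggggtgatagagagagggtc
C1qc: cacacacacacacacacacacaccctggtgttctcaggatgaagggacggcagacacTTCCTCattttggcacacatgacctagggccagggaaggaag
Itgam: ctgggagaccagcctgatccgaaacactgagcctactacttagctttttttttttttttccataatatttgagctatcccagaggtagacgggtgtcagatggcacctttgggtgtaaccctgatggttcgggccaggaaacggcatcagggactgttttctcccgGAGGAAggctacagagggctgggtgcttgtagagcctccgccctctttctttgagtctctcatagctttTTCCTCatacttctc
C3: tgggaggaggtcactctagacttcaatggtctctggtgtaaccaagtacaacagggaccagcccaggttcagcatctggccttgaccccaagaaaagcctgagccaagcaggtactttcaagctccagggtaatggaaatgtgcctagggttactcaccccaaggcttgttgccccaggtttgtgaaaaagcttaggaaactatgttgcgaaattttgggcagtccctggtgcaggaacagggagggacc
In C1qb the match begins at position -30 from the start site and in C1qc at -193. Itgam has matches at -84 and -15 and another at 33 after the start, beyond the stretch shown, and C3 has no GAGGAA on either strand in its whole window. Of the windows not shown, that of Cfp, whose level did not pass, has 2 matches. Those of C3ar1, which rose, and C5ar1, which did not pass, have 0. Whether the matches go with the direction of change was not tested. The STAT-type letters TTCNNNGAA (8.3% of all windows), a STAT6-type motif with a longer spacer (6.95%) and an interferon-response type motif (3.44%), each searched on both strands, were found in none of the 7 windows. A match is a description of letters, and binding was not measured.

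C3, the protein whose cleavage is the central step of all complement pathways, had the largest change of the 9. C3 (ENSMUSG00000024164, chromosome 17, 57203970 to 57228136) was at 96.7, 99.3 and 95.8 TPM in control and at 133, 131 and 145 TPM in M2. Every M2 library lay above every control library. It rose by 39.8%, from 97.3 ± 1.86 to 136 ± 7.46 TPM, with a log2 difference of 0.48 (SE 0.039, interval 0.39 to 0.57, limma adjusted p = 1.21e-04), and the range over the 20 alternatives was 0.43 to 0.51, all called.

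Cfp encodes properdin, the only known positive regulator of the alternative pathway. Cfp (ENSMUSG00000001128, chromosome X, 20925454 to 20931555) was at 881, 919 and 881 TPM in control and at 911, 866 and 899.9 TPM in M2. The groups overlapped, with a log2 difference of -0.0024 and an interval of -0.07 to 0.06 (limma adjusted p = 0.973). Each of these values rests on 7040 or more reads.

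The peptide receptors moved little. C3ar1 (ENSMUSG00000040552, chromosome 6, 122847138 to 122856161), the receptor of C3a, was at 586, 581 and 597 TPM in control and at 623, 632 and 648 TPM in M2. Its groups did not overlap, and it rose by 7.82% (log2 difference 0.11, interval 0.05 to 0.17, limma adjusted p = 0.0319). This call is the weakest of the 7. It passed under 9 of 20 alternatives and did not hold when control replicate 1, 2 or 3 was left out (adjusted p = 0.0935, 0.0944 and 0.0545), nor without M2 replicate 2 (0.0575), M2 replicate 3 (0.0793) or Q11 replicate 2 (0.0558), and with quantile normalization (log2 difference 0.06, adjusted p = 0.226). C5ar1 (ENSMUSG00000049130, chromosome 7, 16246743 to 16259540), the receptor of C5a, was at 576, 589.8 and 644 TPM in control and at 591, 569 and 577 TPM in M2. The groups overlapped and control replicate 3 was highest (log2 difference -0.06, interval -0.15 to 0.03, adjusted p = 0.399).

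Itgam and Itgb2 encode CD11b and CD18, which pair to form complement receptor 3, the receptor for the C3 fragment iC3b. Itgb2 (ENSMUSG00000000290, chromosome 10, 77530252 to 77565708) was at 493, 502 and 497 TPM in control and at 396, 369 and 409 TPM in M2. All M2 libraries were lower. Itgb2 fell by 21.3% (log2 difference -0.35, SE 0.036, interval -0.43 to -0.27, limma adjusted p = 4.11e-04). Itgam (ENSMUSG00000030786, chromosome 7, 128062640 to 128118491) was at 124, 113 and 128 TPM in control and at 92.4, 101.04 and 79.3 TPM in M2. The groups did not overlap, and M2 replicate 3, the library furthest out on the second component, was lowest. Its spread in M2 (coefficient of variation 12.03%) was wider than read counting alone gives (2.13%). Itgam fell by 25.2% (log2 difference -0.42, interval -0.60 to -0.24, adjusted p = 0.0104), and by 0.33 on the log2 scale without M2 replicate 3 (adjusted p = 0.0121). Both calls were kept under all 20 alternatives. Since CD18 is shared by all β2 integrins, the Itgam to Itgb2 ratio was also compared. It was 0.245 ± 0.0169 in control and 0.234 ± 0.0401 in M2 (exact permutation test, two-sided p = 0.7, adjusted p = 0.764).

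**Figure D2:**
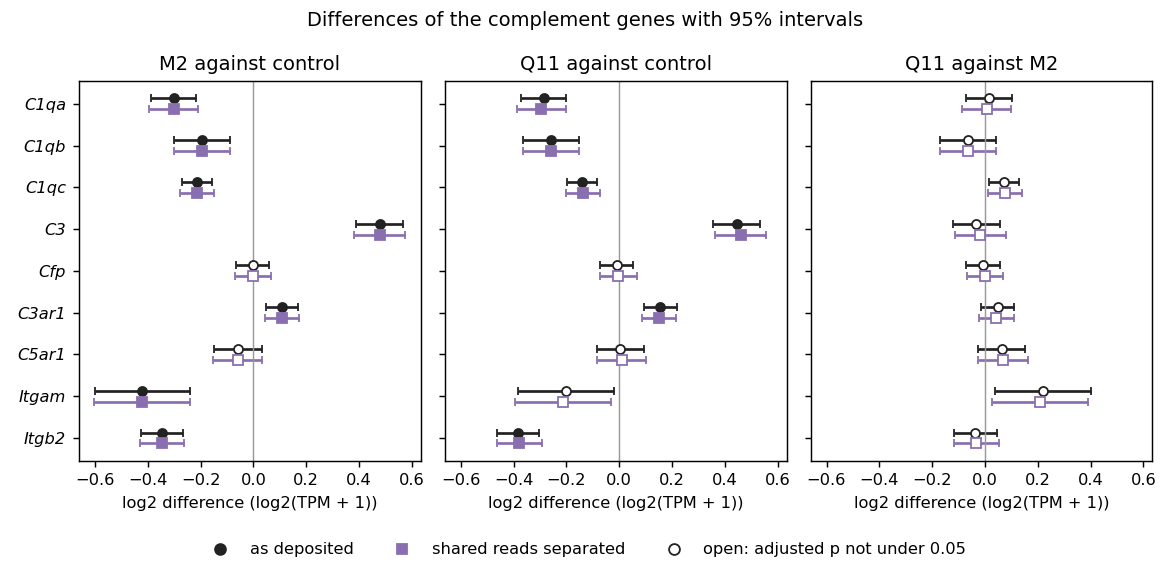
Log2 differences on the log2(TPM + 1) scale (x axis) with 95% intervals for the 9 genes (y axis) in the 3 comparisons, as deposited (circles) and with the shared reads separated (squares). Filled symbols have a limma adjusted p under 0.05, which holds for 7 genes in M2 against control, 6 in Q11 against control and 0 in Q11 against M2.

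Other complement genes were taken from lists by role. Of 57 listed genes 47 were in the table, 24 passed the filter and 23 did not. The 10 without a row (Mbl1, Mbl2, Fcnb, Colec10, Cfd, C8a, C4bp, Serping1, Cpn2 and Cd55b) were not analysed here. In M2 against control 2 of the 24 were higher and 7 lower, beside 6.88% and 5.75% of all genes, with a median difference of -0.12. With the shared reads separated 2 were higher and 6 lower. Some proteases and substrates of the pathway were low. Cfb, the protease of the alternative pathway, had group means of at most 0.148 TPM, C2 of at most 0.744 TPM, and C4b, whose reads can be split with its near-identical copy C4a, of at most 0.452 TPM. Of 7 classical pathway genes 4 were tested, 0 were higher and 1 was lower. C1ra, a protease that rides on C1q, had 32.8 ± 2.55 TPM in control against 30.01 ± 1.66 in M2 (limma adjusted p = 0.253). C1s1, the next protease in the chain, was at 3.95, 4.04 and 4.06 TPM in control and at 1.97, 2.25 and 2.87 TPM in M2, on 60, 64 and 62 against 31, 33 and 43 reads. The groups did not overlap, and C1s1 fell by 0.58 on the log2 scale (adjusted p = 0.0376). That call passed under 6 of 19 alternatives and was lost without each control replicate (adjusted p = 0.0936, 0.0918 and 0.0996), without M2 replicate 1 (0.106), M2 replicate 2 (0.0806) or Q11 replicate 2 (0.0658), and with the shared reads separated (0.0632). C1s1 and C1ra have near copies, C1s2 and C1rb, so their reads are uncertain where the counting could split them.

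Of the lectin pathway 3 of 8 genes were tested and 0 passed, and Fcna, a ficolin that recognises sugars, had 40.8 ± 1.84 TPM in control against 43.3 ± 1.28 in M2 (limma adjusted p = 0.405). Of the 7 terminal pathway genes only C8g passed the filter. Hc, which encodes C5, had 4, 1 and 5 reads in control and 0 reads in every other library. A count of 0 in a single library allows up to 3 reads, and libraries were not pooled for this limit. Of 8 membrane regulators 1 was tested: Cr1l, which encodes Crry, the mouse inhibitor of C3 cleavage on cells, had 22.6 ± 0.142 TPM in control against 20.8 ± 0.956 in M2 (adjusted p = 0.144). Of 8 fluid-phase regulators Clu, the chaperone clusterin, was tested and did not pass (adjusted p = 0.747).

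Among other complement receptors and C1q binding proteins, 6 of 8 were tested, 1 was higher and 0 lower. C1qbp, a mostly mitochondrial protein that can bind C1q, was at 158, 158 and 159 TPM in control and at 175, 190.0 and 187 TPM in M2. It rose with no overlap, by a log2 difference of 0.21 (interval 0.13 to 0.29, limma adjusted p = 0.00544), a call kept in 19 of 20 alternatives and lost after separation without M2 replicate 3 (0.0503). Calr, calreticulin, had 1841 ± 33.1 TPM in control against 1957 ± 34.7 in M2 (adjusted p = 0.0598), and Lrp1, a large uptake receptor, at 435 ± 39.8 and 396 ± 34.1 TPM (adjusted p = 0.316). C5ar2, the other C5a receptor, had group means of at most 2.48 TPM, and Vsig4, the receptor CRIg of tissue macrophages, of at most 0.142 TPM.

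The list of other β2 integrin subunits, their activators and a ligand had 8 of 9 genes tested, 1 higher and 6 lower, beside 6.88% and 5.75% of all genes. Itgal was the only integrin subunit among these calls, and the others were Tln1, Fermt3, Rap1a, Rap1b, Cyth1 and Icam1. Itgal, the CD11a chain of LFA-1, was at 22.2, 24.3 and 28.1 TPM in control and at 15.3, 15.02 and 15.0 TPM in M2. The M2 libraries were close together and all lower, with a log2 difference of -0.68 (interval -0.85 to -0.50, limma adjusted p = 7.06e-04). Itgax, the CD11c chain of complement receptor 4, had 5.08 ± 0.699 TPM in control against 5.82 ± 1.28 in M2 (adjusted p = 0.546). Proteins that switch integrins on went both ways. Tln1 (talin) fell from 409.9 ± 10.3 to 372 ± 8.28 TPM (log2 difference -0.14, adjusted p = 0.0138), and Fermt3 (kindlin-3) rose from 218 ± 3.34 to 243 ± 5.62 TPM (0.16, adjusted p = 0.00439). The small GTPase genes Rap1a and Rap1b fell by 0.33 and 0.27 on the log2 scale (adjusted p = 0.0168 and 0.0114), Cyth1, a partner of CD18, by 0.22 (0.0198) and the ligand gene Icam1 by 0.24 (0.0144). Apbb1ip (RIAM) was at 45.1 and 47.5 TPM (0.286). The calls of Tln1 and Rap1a were lost without control replicate 1 (adjusted p = 0.0533 and 0.0614) or control replicate 3 (0.0513 and 0.0583), that of Cyth1 when control replicate 1 (0.0690) or 2 (0.0577) or M2 replicate 2 (0.0527) was left out, and that of Icam1 without M2 replicate 1 (0.0511). Tln1 was also lost with no trend (0.0562), Rap1a with only the groups compared (0.0577), and Tln1 and Cyth1 after separation without M2 replicate 3 (0.0884 and 0.0709). Those of Itgal, Fermt3 and Rap1b were kept under all 20 alternatives.

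**Figure D3:**
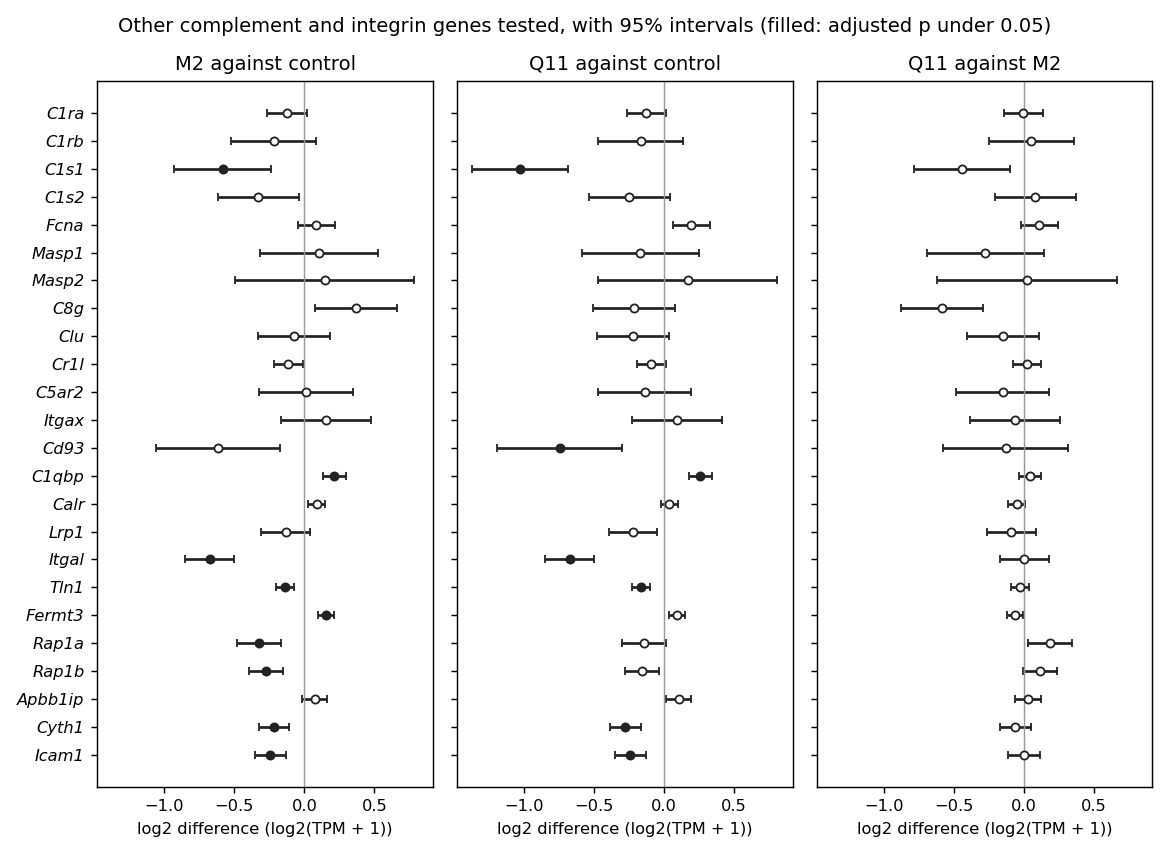
Log2 differences on the log2(TPM + 1) scale (x axis) with 95% intervals for the 24 tested genes of the role lists (y axis) in the 3 comparisons. Filled circles have a limma adjusted p under 0.05, which holds for 9 genes in M2 against control, 7 in Q11 against control and 0 in Q11 against M2, and C1s1 and Itgal lie furthest below 0 among them in M2 against control.

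Q11 against control compared cells given Q11 and both cytokines with untreated cells. It shares its control libraries with M2 against control, so the likeness of both comparisons is not a separate result. C3 and C3ar1 were higher and the C1q chains and Itgb2 lower, which is 2 and 4 of 9 genes, where 5.19% and 5.53% of all genes tested were called higher and lower. The Q11 and control libraries did not overlap in 7 of the 9, against 32.1% of all genes. The median difference of the 9 genes was -0.14, beside 0.0035 over all genes. Separated, the counts were again 2 and 4, where 3.9% and 4.08% of all genes were called. C3 was at 134, 134 and 130.3 TPM in Q11 replicates 1, 2 and 3, all above control (log2 difference 0.45, interval 0.36 to 0.53, limma adjusted p = 1.82e-04, and 0.46 separated). C3ar1 was at 637, 661 and 669 TPM, also above all control libraries, and rose by 11.5% (0.16, interval 0.10 to 0.22, adjusted p = 0.0072, and 0.0135 separated). Itgb2 was at 378, 384 and 382 TPM, below all control libraries, and fell by 23.3% (-0.38, interval -0.46 to -0.30, adjusted p = 2.34e-04, and 3.74e-04 separated).

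The C1q chains fell here as well. C1qa was at 144, 139 and 142 TPM (log2 difference -0.29, adjusted p = 0.00188), C1qb at 456, 459.9 and 461 TPM (-0.26, adjusted p = 0.00912) and C1qc at 228, 236 and 235 TPM (-0.14, adjusted p = 0.00933), each below all control libraries. The calls of these 6 genes were kept under all 20 alternatives. Itgam was at 104, 105.01 and 107 TPM, again below all control libraries (113.2 to 127.7 TPM), but it did not pass (log2 difference -0.20, interval -0.38 to -0.02, adjusted p = 0.163, and 0.165 separated). It passed under 4 of 20 alternatives, which were limma-voom on recovered reads (0.0141), only the groups compared (0.0396), and leaving out M2 replicate 3 (0.0429), which enters this comparison through the spread alone, also with separation (0.049977). Cfp (-0.0097, interval -0.07 to 0.05) and C5ar1 (0.0047, interval -0.08 to 0.09) did not pass. Of the 24 other genes, 1 was higher and 6 lower, or 1 and 5 separated. C1qbp was higher (0.26, adjusted p = 0.00214). C1s1 was at 1.18, 1.45 and 1.79 TPM and had the largest fall of these on the log2(TPM + 1) scale (-1.03, interval -1.37 to -0.68, limma adjusted p = 0.0032). That scale understates the differences of low genes, such as Cd93 below. Itgal (-0.67, adjusted p = 8.18e-04), Tln1 (-0.16, 0.00725), Cyth1 (-0.28, 0.00741) and Icam1 (-0.24, 0.0166) were also lower, the last not without Q11 replicate 1 (0.0571) or Q11 replicate 2 (0.0613). Cd93, a receptor once linked to C1q, was at 0.529 ± 0.134 against 1.56 ± 0.0594 TPM (-0.75, adjusted p = 0.0436). It reached 1 TPM in the control libraries alone and so passed the filter only through the group where it is high, and its place among the 6 lower genes is given as a description. Its call was kept in 5 of 16 alternatives and lost when separated (0.0676). It was also lost without M2 replicate 1 (0.0514), M2 replicate 2 (0.0553), M2 replicate 3 (0.0501), Q11 replicate 1 (0.0657), Q11 replicate 2 (0.140) or Q11 replicate 3 (0.149), and without a control replicate it fell below the filter.

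Q11 against M2 concerns what Q11 added to the cytokines. None of the 9 genes passed, as 0% of all 14207 genes did (limma, smallest adjusted p 0.213 as deposited and 0.356 separated). At an unadjusted p under 0.05 there were 2 of the 9, C1qc and Itgam, where 11.4% of all genes were under it, or 8.11% separated. Without overlap, 3 of the 9 were higher with Q11 (C1qc, C5ar1 and Itgam) and 0 lower, where 9.18% of all genes were higher without overlap and 7.14% separated. These shares count the higher direction only, unlike those given for the other comparisons, which count both. The median difference of the 9 was 0.016, beside -8.81e-04 over all genes.

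Itgam had the largest difference of the 9 here. Its Q11 libraries (104.04 to 107.5 TPM) lay between those of M2 (79.3 to 101.04 TPM) and control (113.2 to 127.7 TPM), with no overlap between any of the groups. The difference from M2 was 0.22 (interval 0.04 to 0.40, limma adjusted p = 0.379), and 0.21 separated (interval 0.03 to 0.39, adjusted p = 0.591). Without M2 replicate 3 it was 0.13 (adjusted p = 0.573), or 0.11 with the shared reads also separated (0.868). C1qc was at 222 ± 3.45 TPM in M2 and 233 ± 4.72 TPM in Q11 (0.07, interval 0.01 to 0.13, adjusted p = 0.379). The 3 libraries of C5ar1 in Q11 (599.3 to 609.5 TPM) were likewise above those of M2 (569.1 to 590.9 TPM), by 0.06 (interval -0.03 to 0.15, adjusted p = 0.568).

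The other 6 genes overlapped between M2 and Q11. The intervals were -0.07 to 0.10 for C1qa, -0.17 to 0.04 for C1qb, -0.12 to 0.06 for C3, -0.07 to 0.06 for Cfp, -0.01 to 0.11 for C3ar1 and -0.12 to 0.04 for Itgb2. For C3 the interval of the Q11 difference thus ended at 0.06 above and -0.12 below, next to a cytokine difference of 0.48. A p over the threshold does not show that levels were equal. Of the 24 other genes 0 passed. The largest differences were lower with Q11 and without overlap, in C8g (-0.58, interval -0.88 to -0.29, adjusted p = 0.294) and C1s1 (-0.44, interval -0.79 to -0.10, adjusted p = 0.368). Both rest on few reads. C8g had 47, 41 and 37 in M2 and 27, 42 and 29 in Q11, with 13 left in Q11 replicate 2 after separation. C1s1 had 31, 33 and 43 in M2 and 18, 43 and 28 in Q11, with 15 left. The share of all genes lower without overlap is not given here. Rap1a had a pattern like that of Itgam, at 155 to 159 TPM in Q11 between 123.4 to 151.1 TPM in M2 and 160.8 to 179.9 TPM in control (Q11 against M2 0.19, interval 0.03 to 0.34, limma adjusted p = 0.379). Like Itgam, Rap1a was lowest in M2 replicate 3 (123.4 TPM, against 138.9 and 151.1 TPM in M2 replicates 1 and 2).

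The C1q chain shares and the Itgam to Itgb2 ratio were also compared with Q11. C1qc made up 27.96 ± 0.397% of the C1q transcripts in Q11, above all control libraries (26.2 to 26.4%) but not above M2 replicate 1 (27.9%), which lay inside the Q11 range (27.5 to 28.3%). C1qb made up 55.1 ± 0.0654% in Q11, below all control libraries. For C1qc the exact permutation p was 0.1 against control, as for C1qb, the smallest this design allows, and 0.2 against M2 (both 0.343 adjusted over the 12 ratios). As Q11 replicates 2 and 3 share reads, these p-values treat as independent libraries that are not. The Itgam to Itgb2 ratio was 0.277 ± 0.00403 in Q11, above all control libraries (0.225 to 0.257, exact permutation p = 0.1, 0.343 adjusted), while the M2 libraries were spread from 0.194 to 0.274. With the shared reads separated the Q11 values were 28.04 ± 0.495% for C1qc, 55.1 ± 0.0744% for C1qb and 0.274 ± 0.00805 for Itgam to Itgb2, with the same p-values. The M2 libraries varied more than the Q11 libraries in these 3 ratios, as deposited and separated.

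**Figure D4:**
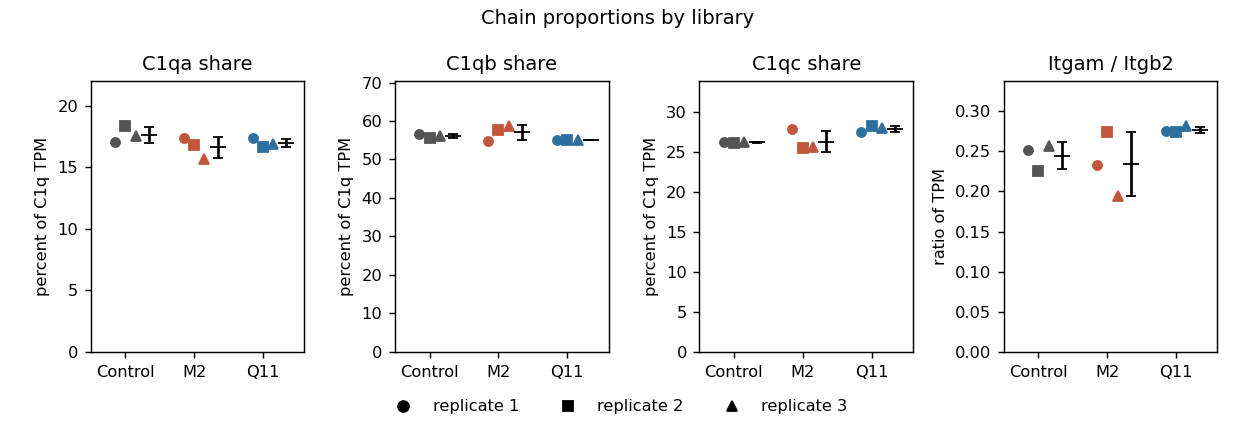
Percent of C1q transcripts from each chain and the ratio of Itgam to Itgb2 TPM (y axes, from 0) in each library of the 3 groups, with symbols for replicates and a bar for the mean and SD. C1qb made up 54.7 to 58.7% in all 9 libraries, and the widest spread of the Itgam ratio was within M2, from 0.194 to 0.274.

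For 3 of the genes, the transcripts most alike across the 9 libraries were looked up by Pearson correlation of log2(TPM + 1) among 8596 other genes whose mean was 10 TPM or more. The libraries fall into control and cytokine-treated ones, and a pair of the Q11 libraries shares reads. How far either sets these correlations was not tested. Nearest to C3 were Cct3 (r = 0.994), Ap2m1 (0.993) and Adam9 (0.991), all higher in M2 than in control, such as Ap2m1 at 321 and 466 TPM. Nearest to Itgam were Rap1a (0.993), Marcks (0.988) and Cav2 (0.983). Each had its lowest group mean in M2 and an intermediate one in Q11. Marcks, for example, was at 103, 81.2 and 90.9 TPM in control, M2 and Q11. As these genes were picked for their likeness to Itgam, the shared order is not a separate result. Nearest to C1qa were Clec4n (0.986), Limd2 (0.986) and Sgk1 (0.985), with Clec4n at 23.4, 8.46 and 9.21 TPM.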

How the data were processed

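Poly-A RNA of 9 J774A.1 libraries was sequenced, and the authors deposited the levels as TPM. The submitters' processing notes name HISAT2 2.0.5, StringTie 1.3.3b and GRCm38 (mm10), and the sources used here do not give the annotation or counting settings, strand included. Multiplying TPM by exon length (GENCODE M21, 25594 of 26157 IDs matched) recovered reads, and 98.8% to 99.1% of values up to 20 reads were whole within 0.1 read.

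Levels were fitted as log2(TPM + 1), on which differences of low genes are understated, for genes reaching 1 TPM in 3 or more libraries. The fit had 1 mean per group over all 9 libraries (limma 3.58.1, R 4.3.3, eBayes with trend, 6 residual degrees of freedom) and was tested on simulated counts. Tests were two-sided, with Benjamini-Hochberg adjustment over all genes tested and a threshold of 0.05. Alternatives were pseudocounts of 0.5 and 0.1, no filter, a filter of 5 TPM, quantile normalization, no trend, only the groups compared, a replicate block, each library left out, limma-voom on recovered reads and the shared reads separated. The separation of shared reads combined with leaving out M2 replicate 3 was added after seeing the data, as was the separation for the ratios. The members and lists were chosen with earlier results of these data known. The text names the 9 genes, each role-list gene past the threshold or with a group mean of at least 20 TPM, and, for likeness, the nearest 3 genes to C1qa and to the 2 called members with the largest M2 differences. Other list genes were named after their values were seen. Whether libraries came from separate cultures is not stated, so the p-values reflect variation among these libraries, which may be technical. Other software was Python 3.11.15 with numpy 2.4.6, pandas 2.3.3, scipy 1.17.1 and matplotlib 3.10.9.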

Additional observations from a re-analysis of the deposited data

How the results depend on the processing

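Depth limits C1s1, C8g and Cd93. Among the 9, C1qa, C1qc, C3 and Itgb2 spread no wider in control than read counting gives. Their coefficients of variation were 3.08%, 1.61%, 1.91% and 0.930%, against 3.36%, 2.02%, 2.01% and 1.16% from counting. In M2 this held for C1qc alone (1.55% against 2.20%). The number of genes called in M2 against control was 1794, and 1054 with only the groups compared, 861 after separating shared reads and without M2 replicate 3, and 1146 (without control replicate 1) to 1656 when leaving out 1 library; without control replicate 3 it was 1178. In Q11 against control it was 1524, and 771 (without Q11 replicate 3) to 1616 when leaving out 1 library; without Q11 replicate 2 it was 792. In Q11 against M2 it was 0, but 3 with no filter (1700001D01Rik, Gm25558 and Gm48806), 2 with no trend (1700001D01Rik and Gm25558), 2 by limma-voom (Rpl41 and mt-Co1), and 0 to 2 when leaving out 1 library (5S_rRNA without control replicate 3, Gm16161 and Mir365-2 without M2 replicate 1), none of them a complement gene and the cause was not tested. The calls among the 9 numbered 5 to 7 in M2 against control, 6 to 7 in Q11 against control and 0 in Q11 against M2 when leaving out 1 library.

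Signs turned only for differences that passed under none of the 20 alternatives. After separation and without M2 replicate 3, Q11 against M2 was -0.027 for C1qa, 0.026 for C3, 0.0059 for Cfp and 7.30e-04 for Itgb2. With quantile normalization it was 2.88e-04 for Cfp, and C5ar1 in Q11 against control was -0.020. Leaving out 1 library, Cfp ranged from -0.018 to 0.019 in M2 against control, -0.029 to 0.0078 in Q11 against M2 and -0.020 to 0.011 in Q11 against control. C1qa ranged from -0.018 to 0.048 and C3 from -0.061 to 0.011 in Q11 against M2, and C5ar1 from -0.028 to 0.053 in Q11 against control. The causes were not tested.

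Deviations from the group means correlated at -0.114 to 0.112 between same-numbered libraries of different groups and at -0.193 to 0.133 between differently numbered ones. No pairing by replicate number was seen, but with 3 libraries a group this check cannot exclude it. With the replicate block 1335 genes were called in M2 against control, 1086 in Q11 against control and 0 in Q11 against M2, and of the 9 complement genes 7, 6 and 0.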
